A study of Mus musculus with 48 samples.

Results

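Lipid-associated macrophages are macrophages loaded with fat, and 10 genes that mark them were followed here after Roux-en-Y gastric bypass (RYGB) in the mouse. The genes were Mmp12, Gpnmb, Trem2, Cd9, Spp1, Lgals3, Itgax, Ctsd, Cd63 and Tyrobp, 10 of the 15541 genes listed in any of 6 tissue tables. They were found by gene symbol, and each symbol matched a single Ensembl identifier in every table that listed it. They were selected on their RYGB against sham differences in the liver and in the subcutaneous white adipose tissue (WAT), which were already known, so the values of these genes in both tissues are a description and carry no test. All 10 were listed in the liver and in WAT, 9 in skeletal muscle (Trem2 was not listed) and 6 in the villi of the duodenum, jejunum and ileum, where Mmp12, Gpnmb, Trem2 and Spp1 were not listed.

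RYGB connects a small pouch of the stomach to the jejunum and takes the remaining stomach and the duodenum out of the path of food. All mice were male C57Bl6 with diet-induced obesity from a high fat diet. They had either RYGB or a sham operation, then a liquid elemental diet, and were killed in the morning after a fast, 9 days after surgery. The labels also mention a return to the high fat diet, give no age, do not say whether sham mice were matched for weight and do not name the fat depot beyond its subcutaneous origin. The 48 mRNA libraries comprised 4 RYGB and 4 sham libraries each of liver, WAT and muscle, 3 and 4 each of the duodenum and jejunum, and 5 and 5 of the ileum. The labels do not tie libraries to single mice, so the p-values measure the spread between these libraries, and it is not given which libraries of different tissues came from the same mouse. Values are CPM, the reads of a gene relative to all reads of its library, normalized separately in each tissue and rounded to 0.1.

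Macrophages in an obese fat depot surround dying adipocytes and take up their lipid, and in that state they turn on a shared program of lipid sensing, lysosomal breakdown and matrix remodelling. TREM2, a receptor at the cell surface, binds lipids and lipoproteins and signals through the adaptor TYROBP (also called DAP12). A similar program is known from macrophages of the fatty liver, where recruited monocytes give rise to such cells beside the resident Kupffer cells. Several of the genes are also used by other cells: cathepsin D, CD63, CD9 and galectin-3 are made by many cell types, among them epithelia, and osteopontin is made by bile duct cells.

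Mmp12 lies on the plus strand of chromosome 9 (ENSMUSG00000049723, chr9:7344381-7369499) and Gpnmb on the plus strand of chromosome 6 (ENSMUSG00000029816, chr6:49036546-49070929), in GRCm38 with the GENCODE M21 annotation. Trem2 (chr17:48346401-48354147), Spp1 (chr5:104435118-104441050), Lgals3 (chr14:47367751-47386160), Itgax (chr7:128129547-128150657), Cd63 (chr10:128900989-128912822) and Tyrobp (chr7:30413760-30417585) are on the plus strand as well, and Cd9 (chr6:125460266-125494791) and Ctsd (chr7:142375911-142388038) are on the minus strand. The bases upstream of the start of Mmp12, Gpnmb and Trem2 are shown because Mmp12 and Gpnmb had the largest differences among the 10 genes in the liver and TREM2 is the receptor that defines the program. They come from RefSeq on GRCm38.p6, run 5′ to 3′ over the 250 bases before the start, and carry in capitals the matches to the motifs searched. RefSeq has a pair of starts for Mmp12, and both windows are shown. The upstream start lies 16 bases inside the GENCODE gene (window chr9:7344147-7344396) and the internal start 2993 bases inside it (window chr9:7347124-7347373). The windows are chr6:49036268-49036517 for Gpnmb and chr17:48346151-48346400 for Trem2, and all 4 are on the plus strand.
Mmp12, upstream start: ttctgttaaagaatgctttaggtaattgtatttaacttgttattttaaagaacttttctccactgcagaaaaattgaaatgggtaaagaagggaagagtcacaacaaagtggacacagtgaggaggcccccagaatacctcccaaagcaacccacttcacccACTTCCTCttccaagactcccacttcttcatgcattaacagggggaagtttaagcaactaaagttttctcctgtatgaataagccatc
Mmp12, internal start: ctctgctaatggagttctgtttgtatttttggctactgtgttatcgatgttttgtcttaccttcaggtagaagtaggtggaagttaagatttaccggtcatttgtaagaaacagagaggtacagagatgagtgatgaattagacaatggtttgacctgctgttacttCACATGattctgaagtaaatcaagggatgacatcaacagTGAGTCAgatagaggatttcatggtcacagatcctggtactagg
Gpnmb: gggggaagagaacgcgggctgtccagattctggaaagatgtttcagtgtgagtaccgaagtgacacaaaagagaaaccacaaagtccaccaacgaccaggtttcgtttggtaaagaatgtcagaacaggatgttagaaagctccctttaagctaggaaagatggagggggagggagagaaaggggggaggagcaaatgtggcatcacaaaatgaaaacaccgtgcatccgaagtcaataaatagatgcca
Trem2: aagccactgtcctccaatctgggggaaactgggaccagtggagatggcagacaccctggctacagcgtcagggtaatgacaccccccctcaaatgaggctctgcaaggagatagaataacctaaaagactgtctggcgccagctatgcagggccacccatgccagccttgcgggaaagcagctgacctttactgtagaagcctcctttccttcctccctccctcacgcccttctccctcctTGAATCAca
At the upstream start of Mmp12 the capitals mark a form of the PU.1 motif, whose first base lies at -88 from that start. At the internal start they mark an M-box core and then an AP-1 motif (TGAGTCA), at -83 and -44. In the window of Trem2 they mark TGAATCA at -9, a match to the AP-1 pattern searched, TGANTCA, in which N is any base. The window of Gpnmb has none.

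Motifs were searched on both strands in the 250 upstream bases of all 32851 RefSeq windows. They were TGANTCA, a form of the AP-1 motif with any base at N, and the E-box CACGTG bound by TFEB and TFE3. The others were the M-box core CATGTG bound by MITF, and GAGGAAGT, a form of the motif of the myeloid factor PU.1. A window was found for 9 of the 10 genes, and Mmp12 and Spp1 each had another one, which makes 11 windows. The only window of Lgals3 and that of Cd63 also stand at starts inside the GENCODE gene, by 6109 and 8356 bases. Mmp12 (at its internal start) and Itgax held the AP-1 form as TGAGTCA, and Trem2 held it as TGAATCA (6.75% of all windows held the form). Mmp12 (again at the internal start) and Cd9 held the M-box core (12.3%), and Ctsd held the E-box at -245 and at -98 (6.02%). The window at the upstream start of Mmp12 and a window of Spp1 held the PU.1 form, at -88 and -113 (2.44%). Gpnmb, Lgals3 and Cd63 held none of these letters. A match is a string of letters and was not tested for binding.

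In the liver, 8 of the 10 genes were higher in every RYGB library than in every sham library, as were 13.4% of all 11807 genes tested, and since the genes were picked for this contrast nothing is read from that count. Mmp12, which encodes the macrophage elastase that cuts elastin and other matrix proteins, averaged 1 CPM in sham liver and 48.9 CPM after RYGB. Gpnmb, a glycoprotein of lysosomal and cell membranes, had the next largest difference, followed by Itgax, Lgals3, Cd63 and Trem2, while Spp1 and Ctsd overlapped between groups. In WAT, levels in sham mice were higher than in sham liver for all but Spp1, and 9 of the 10 genes had a negative fold change after RYGB.

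Mmp12 had 72.6, 41.2, 49.6 and 32.3 CPM in the RYGB livers and 0.3, 0.2, 2.9 and 0.6 CPM in the sham livers. The lowest RYGB liver was thus above the highest sham liver, and the sham values of 0.2 and 0.3 CPM lie near the rounding step. The mean was 48.9 CPM ± 17.3 (SD, n = 4) after RYGB and 1 CPM ± 1.28 (n = 4) after sham. On the log2(CPM + 1) scale, which understates the change of low genes, the difference was 4.76 ± 0.36 (SE). Gpnmb had 41.4, 35.6, 49.6 and 15.5 CPM after RYGB and 0.3, 0.6, 2.2 and 0.9 CPM after sham, a log2 fold change of 4.16 ± 0.35. Its groups were also apart, and RYGB replicate 4 was the lowest RYGB liver for both genes.

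Trem2 had 9, 7.2, 11.3 and 5 CPM in the RYGB livers against 1.1, 1.2, 1.8 and 1.9 CPM in the sham livers, a log2 fold change of 1.83 ± 0.22. Its signalling partner Tyrobp, the DAP12 adaptor, had 34.8, 78, 39.4 and 30.6 CPM against 17.5, 26.7, 25.1 and 18.4 CPM (0.95 ± 0.26). Every RYGB liver was above every sham liver for both genes, and the adaptor stood out in RYGB replicate 2. Itgax, the CD11c chain of a beta2 integrin found on dendritic cells and on fat tissue macrophages, had 10, 5.6, 16.4 and 4.9 CPM after RYGB and 0.8, 0.9, 1.9 and 1.1 CPM after sham (2.12 ± 0.31).

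Lgals3, which encodes the sugar-binding galectin-3, had 37, 56.2, 41.7 and 23.4 CPM in the RYGB livers and 7.1, 8.9, 11.8 and 7.1 CPM in the sham livers (2.02 ± 0.24). Cd63, a tetraspanin of lysosomes and secreted vesicles, had 14.5, 18.3, 16 and 7.6 CPM against 1.8, 3.4, 4 and 2 CPM (1.97 ± 0.27). Cd9, a tetraspanin of the cell surface, had 29.9, 40.2, 44.2 and 32.9 CPM against 15.9, 25.2, 14.8 and 16.4 CPM (1.00 ± 0.18). For these 3 genes the groups did not overlap, although the nearest values of Cd9 (29.9 and 25.2 CPM) were close.

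Ctsd, the lysosomal protease cathepsin D, had 610.5, 682.7, 635.2 and 569.4 CPM in the RYGB livers and 386.8, 586.4, 484.4 and 407.3 CPM in the sham livers (0.44 ± 0.15). Spp1, the secreted phosphoprotein osteopontin that binds integrins and CD44, had 48.7, 59.3, 101.7 and 49.6 CPM against 29.8, 59.9, 46.9 and 49.7 CPM (0.44 ± 0.25). The groups overlapped for both, and Spp1 was high in RYGB replicate 3 alone. With a gene called when its adjusted p in limma was under 0.05 and its fold change was at least 1.5, the other 8 genes were called higher in the liver, where 5.79% of all genes tested were called higher. The median log2 fold change of the 10 genes was 1.90 against 0.13 over all genes. Nothing is read from these values either. Scaling the libraries by median ratios brought the median of all genes from 0.13 to -0.01 and left Mmp12 at 4.65, Gpnmb at 4.06 and Cd9 at 0.85.

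**Figure D1:**
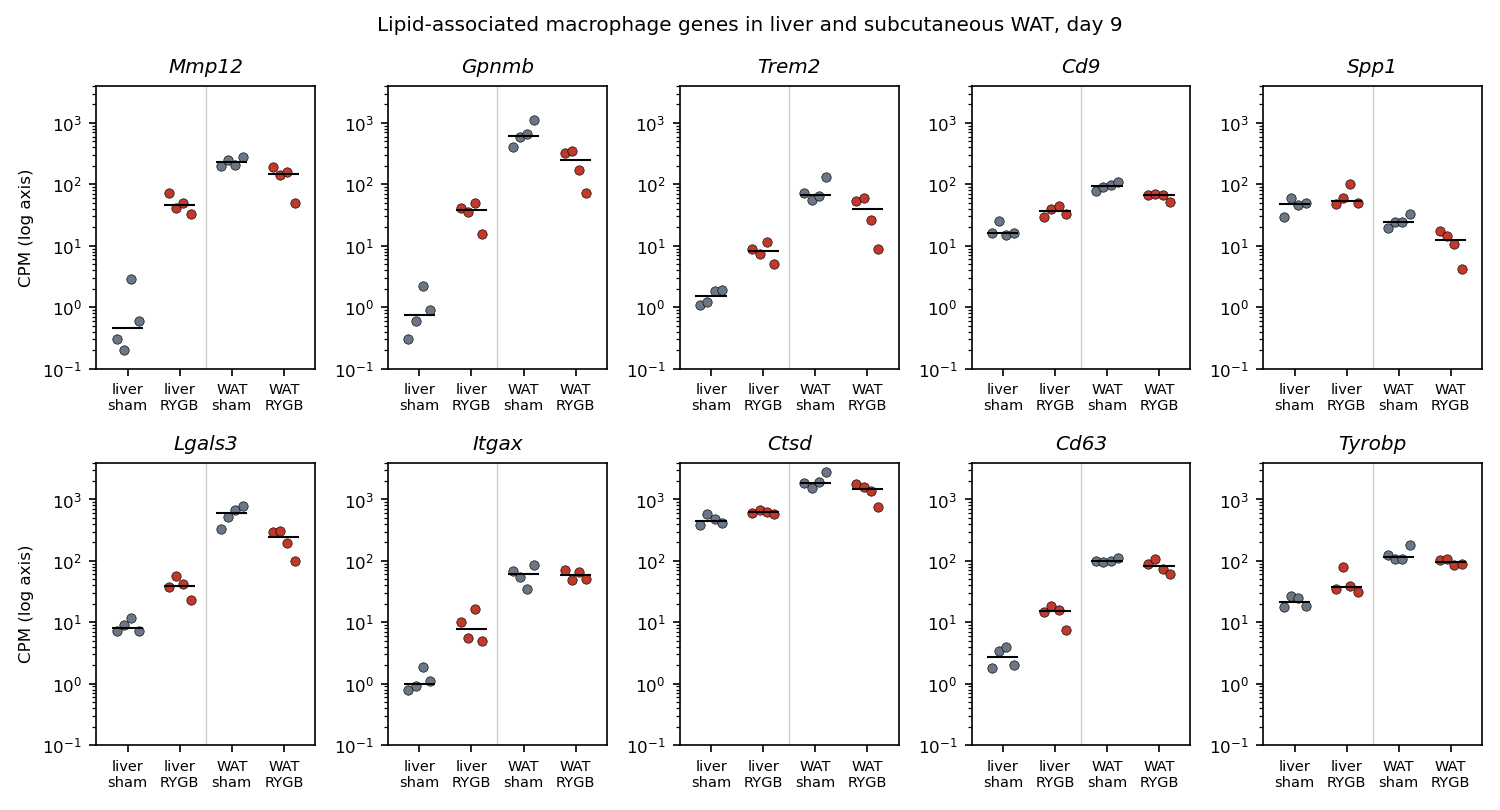
Level of each of the 10 genes in the liver and in subcutaneous WAT, in CPM on a log axis, with a point for each library (4 sham and 4 RYGB libraries of each tissue) and a bar at the median. The median of Mmp12 is 0.45 CPM in sham liver and 45.4 CPM in RYGB liver, that of Gpnmb 0.75 and 38.5 CPM, and in WAT their RYGB libraries lie below the sham libraries.

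In sham mice the levels of 9 of the 10 genes were higher in every WAT library than in every liver library. The share of all genes that lay so between these tissues was not counted, so nothing is read from this count. The tables were normalized separately, so a ratio across tissues rests on different sets of abundant genes. The ratio of the sham means, WAT to liver, was 695.5 for Gpnmb, 233.9 for Mmp12, 66.4 for Lgals3, 54 for Trem2, 51.9 for Itgax and 36.4 for Cd63. It was smaller for Tyrobp (5.94), Cd9 (5.2) and Ctsd (4.34). Spp1 alone was lower in WAT, with a ratio of 0.545 and overlapping values. After RYGB the mean of Mmp12 in the liver reached 20.9% of its mean in sham WAT and that of Gpnmb 5.11%, and the ratios of WAT to liver after RYGB were 2.75 for Mmp12 and 6.5 for Gpnmb.

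In WAT, Gpnmb had 329.5, 348.3, 173.4 and 72 CPM after RYGB and 410.8, 586.6, 655.8 and 1128.9 CPM after sham, a log2 fold change of -1.73 ± 0.50 (SE, n = 4 and 4). Every RYGB value was below every sham value, with RYGB replicate 4 lowest and sham replicate 4 highest. Lgals3 had 296.1, 311.7, 197 and 98.3 CPM after RYGB and 329.6, 525.6, 671.2 and 791.4 CPM after sham (-1.42 ± 0.40). Spp1 had 17.7, 14.5, 10.7 and 4.2 CPM against 19.1, 24.5, 24.6 and 33.4 CPM (-1.17 ± 0.37). The groups of both genes were apart, but the nearest values lay close together, 311.7 and 329.6 CPM for Lgals3 and 17.7 and 19.1 CPM for Spp1.

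Mmp12 in WAT had 190.6, 139.6, 158.5 and 49.2 CPM after RYGB and 198.4, 253.6, 207.1 and 276.5 CPM after sham (-0.94 ± 0.38). Cd9 had 66, 70.5, 67.5 and 50.8 CPM against 77.2, 92, 96 and 111.1 CPM (-0.55 ± 0.14). Both genes were lower in every RYGB library without being called, and the fold change of Cd9 was under 1.5. Trem2 had 53.9, 59.9, 26 and 9 CPM after RYGB and 71.2, 56.3, 65 and 131.6 CPM after sham (-1.33 ± 0.54), and its groups overlapped through sham replicate 2.

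The other 4 genes overlapped between groups in WAT. The log2 fold change was -0.59 ± 0.32 for Ctsd, with 739.8 to 1813.6 CPM after RYGB and 1548.1 to 2769.3 CPM after sham. It was -0.34 ± 0.16 for Cd63 (60.8 to 105.8 against 95.7 to 111.5 CPM) and -0.41 ± 0.17 for Tyrobp (86.5 to 108.8 against 106.9 to 180.0 CPM). Itgax had 71.1, 48.3, 65 and 50.8 CPM after RYGB and 68.3, 54.4, 34.8 and 86.4 CPM after sham, and its log2 fold change was 0.00 ± 0.26 with a 95% confidence interval from -0.58 to 0.59. Itgax thus showed no clear difference in WAT, whereas in the liver its groups were apart.

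Of the 10 genes, 3 (Gpnmb, Lgals3 and Spp1) were called lower in WAT, where 9.23% of all 13379 genes were called lower, and 5 had groups that did not overlap (15.0% of all genes lay apart in this direction). The median log2 fold change was -0.76 against 0.11 over all genes. Since the genes were picked for this contrast, nothing is read from these counts or from this median. The number called was 0 without sham replicate 2, 3 or 4, 1 without RYGB replicate 3, and 4 without RYGB replicate 1, RYGB replicate 2 or sham replicate 1. The share of all genes called in either direction moved as well, from 24.1% with all libraries. It was 19.7% to 20.5% without those sham replicates, 20.3% without RYGB replicate 3, and 22.7% to 28.1% where 4 were called. Scaling by median ratios, which took the median of all genes from 0.11 to -0.00, gave -1.85 for Gpnmb, -1.05 for Mmp12 and -0.11 for Itgax.

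Other cells moved with the groups in both tissues. In WAT the summed level of 10 B cell markers was 1185.0 to 3188.0 CPM after RYGB and 14.5 to 26.9 CPM after sham, and all 10 were called higher (14.9% of all genes). The sum of 11 T and NK cell markers, 8 of them called higher, was 358.0 to 1320.8 CPM against 19.7 to 39.9 CPM. Both sums were highest in RYGB replicate 4, the RYGB library with the lowest value of 8 of the 10 genes (all but Itgax and Tyrobp). In the liver the sum of 7 listed neutrophil markers out of 11 was 41.5 to 658.7 CPM after RYGB and 12.3 to 20.8 CPM after sham. The highest value was in RYGB replicate 2, and Ly6g, Camp, Mpo and Elane were not listed in the liver. Without this library 8 of the 10 genes and 4.62% of all genes were called. Nothing is read from that count, since the genes were picked for this contrast. The part of these cells in the values of the 10 genes was not tested. In bulk tissue, more cells of a type and more RNA of a gene per cell cannot be told apart.

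The level of macrophages was followed with 16 pan-macrophage genes, a list without any of the 10. In the liver 5 of the 16 rose and none fell (limma, adjusted over all genes), among them Cd14, a receptor for bacterial lipopolysaccharide (log2 fold change 2.26, adjusted p = 0.0186), Lyz2, the myeloid lysozyme (1.81, adjusted p = 0.00894), and Ms4a7 (1.72, adjusted p = 0.013). Their median log2 fold change was 0.65 against 0.13 for all genes. Of the 8 Kupffer cell markers none was called and 2 had an unadjusted p under 0.05 (26.9% of all liver genes), with a median of 0.14. Of 7 monocyte markers 4 rose, with Chil3 (2.88, adjusted p = 0.0117), the chemokine receptor Ccr2 (1.82, adjusted p = 0.00534) and S100a4 (1.60, adjusted p = 0.00562) first. In WAT 5 of the 16 pan-macrophage genes fell, led by Adgre1, the F4/80 antigen (-1.19, adjusted p = 0.0424), the mannose receptor Mrc1 (-1.17, adjusted p = 0.03) and the lysosomal glycoprotein Cd68 (-1.09, adjusted p = 0.0131), while the fractalkine receptor Cx3cr1 (1.64, adjusted p = 0.00678) and Aif1 (0.96, adjusted p = 0.0158) rose. The number called in the liver was 3 without sham replicate 4, and in WAT, 7 in all, it was 3 without RYGB replicate 3 and 4 without sham replicate 4. It rose to 8 in the liver and to 12 in WAT with the sequencing lane in the fit. That fit also called more of all genes, 9.23% in place of 7.08% in the liver and 30.3% in place of 24.1% in WAT.

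To set the 10 genes beside macrophage content, each was taken relative to the mean log2(CPM + 1) of the 12 pan-macrophage genes listed in liver, WAT and muscle, within the same library. This left out 4 of the 16 that muscle does not list: Fcgr1, Aif1, Cx3cr1 and Ms4a7, among them both genes of the list that rose in WAT and 2 of the 5 that rose in the liver. That mean was 6.12 ± 0.57 (SD) in RYGB liver and 5.34 ± 0.30 in sham liver, a difference of 0.78 with the groups apart. Relative to it, 4 of the 10 genes lay apart in the liver with RYGB higher, as did 0.593% of all genes (37.9% lay apart with RYGB lower), and nothing is read from this count: Mmp12 by 3.98, Gpnmb by 3.38, Lgals3 by 1.24 and Cd63 by 1.19 on the log2 scale. Trem2 (1.05), Itgax (1.34), Cd9 (0.22) and Tyrobp (0.17) overlapped, and Spp1 (-0.34) and Ctsd (-0.34) lay lower after RYGB with overlap. RYGB replicate 2, which had the highest summed level of pan-macrophage genes (2280.4 CPM), gave the lowest relative value among RYGB livers for Mmp12, Trem2, Cd9, Spp1, Itgax and Ctsd.

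In WAT the pan-macrophage mean was 6.94 ± 0.46 after RYGB and 7.61 ± 0.30 after sham, a difference of -0.66 with overlap. Relative to it all 10 genes overlapped between groups, whereas 38.3% of all genes lay apart with RYGB higher and 0.0897% with RYGB lower. Gpnmb differed by -1.07, Lgals3 by -0.75, Trem2 by -0.67, Spp1 by -0.51 and Mmp12 by -0.28. The other genes differed in the other direction, Itgax by 0.67, Cd63 by 0.33, Tyrobp by 0.26, Cd9 by 0.11 and Ctsd by 0.07. With all 16 pan-macrophage genes in the mean, a choice made after seeing the data, the same 4 genes lay apart in the liver, Mmp12 by 3.89 and Gpnmb by 3.29. In WAT the mean of the 16 differed by -0.41, all 10 genes again overlapped, and the differences were -1.32 for Gpnmb, -1.01 for Lgals3, -0.92 for Trem2, -0.53 for Mmp12 and 0.41 for Itgax. With this reference those of Cd9 and Ctsd turned from 0.11 and 0.07 to -0.14 and -0.18, and those of Spp1, Cd63 and Tyrobp were -0.76, 0.07 and 0.00. These are descriptions, since both measures come from the same libraries and the genes were known beforehand.

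**Figure D2:**
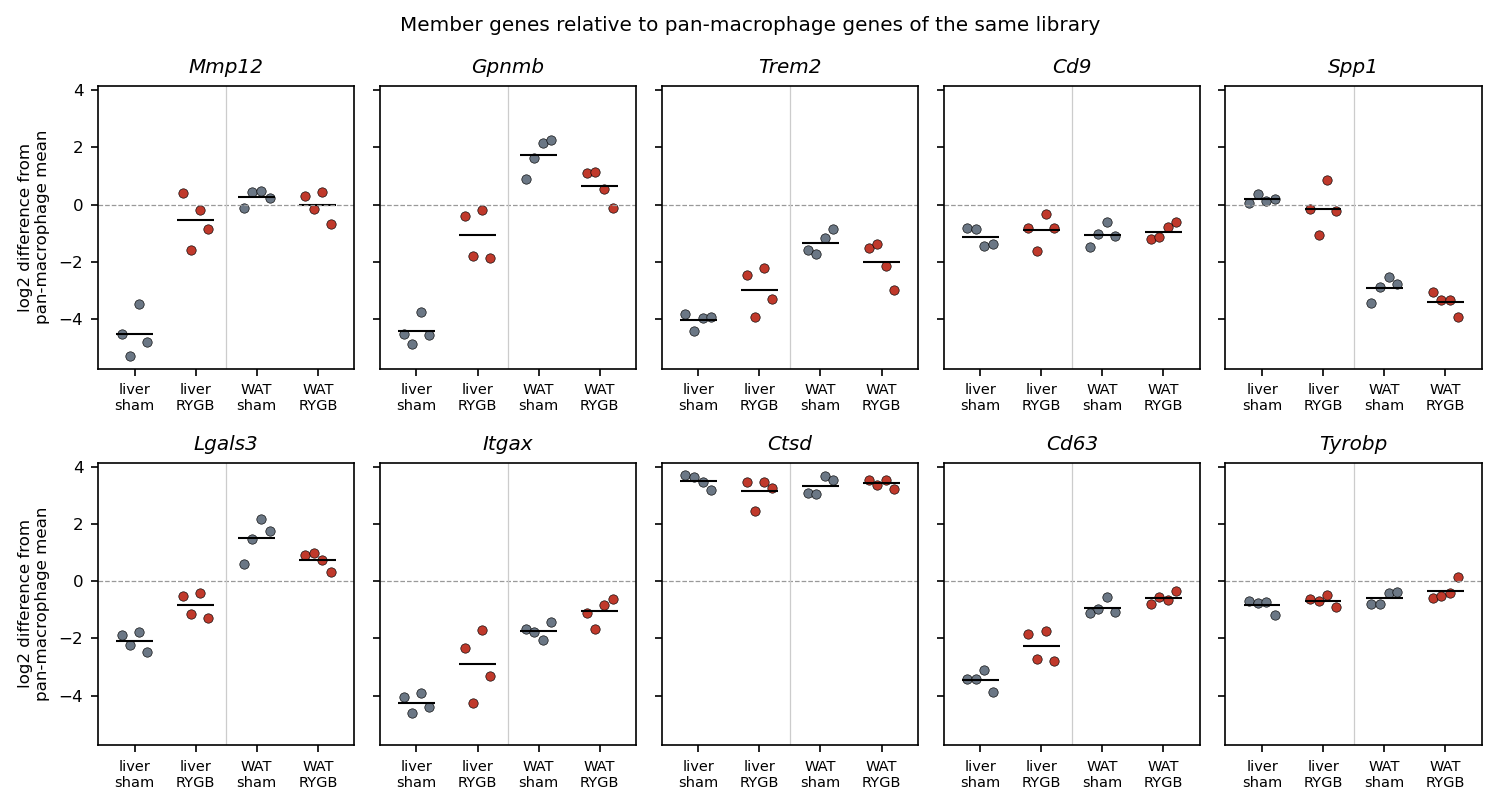
Level of each gene in the liver and WAT as the log2 difference from the mean of 12 pan-macrophage genes in the same library, with a point for each library and a bar at the mean of 4. Mmp12 and Gpnmb in RYGB liver lie above sham liver by 3.98 and 3.38, while all 10 genes overlap between the groups in WAT.

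Genes close to the 10 in function were counted from lists in which the 10 were left out. Beside these counts stand the shares of all genes called higher and lower, 5.79% and 1.29% in the liver and 14.9% and 9.23% in WAT. Of 21 other markers of lipid-associated macrophages listed in the liver, 10 rose and none fell. The actin-capping protein Capg went from 2.55 CPM ± 0.975 (SD, n = 4) to 15.2 CPM ± 8.09 (n = 4), a log2 fold change of 2.09 (limma, adjusted p = 0.00582). Lpl, the lipoprotein lipase that frees fatty acids from lipoproteins, went from 30.2 to 92.5 CPM (1.56, adjusted p = 0.00185), and Plau, the urokinase plasminogen activator, from 1.97 to 6.47 CPM (1.38, adjusted p = 0.0206). The median of the list was 0.77. In WAT 7 of 22 such genes fell and 1 rose, with a median of -0.64. Atp6v0d2, a subunit of the proton pump of lysosomes, fell from 120.2 to 36.9 CPM (-1.81, adjusted p = 0.0228), Emp1 from 664.3 to 262.1 CPM (-1.52, adjusted p = 0.0186) and Plau from 141.7 to 62.4 CPM (-1.28, adjusted p = 0.0159). The proton channel Hvcn1, which B cells also use, rose from 28.6 to 236.3 CPM (2.98, adjusted p = 0.00015). Without sham replicate 4 the number called in WAT was 5 in place of 8.

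Around TREM2 and DAP12, 4 of 12 genes of the receptor family and its signalling rose in the liver and none fell. They were led by the tyrosine kinase Syk (1.46, adjusted p = 0.0186), the receptor-like gene Treml4 (1.17, adjusted p = 0.0311) and the lipid phosphatase Inpp5d (1.05, adjusted p = 0.0343). In WAT 10 of 16 rose and 1 fell. The largest increases were those of Siglecg (5.67, adjusted p = 1.15e-05) and Treml2 (5.07, adjusted p = 4.53e-05), both known from B cells, and of the phosphatase Ptpn6 (2.45, adjusted p = 0.00058), while the exchange factor Vav3 fell (-0.76, adjusted p = 0.00821). The rise of this list in WAT stood beside the B and T cell sums given above, and Trem2 and Tyrobp themselves had negative fold changes there.

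Among 32 lysosomal genes, 8 rose in the liver and none fell. The membrane protein Laptm5 of blood cell lysosomes (1.04, adjusted p = 0.0264) and the cathepsins Ctss (0.86, adjusted p = 0.0352) and Ctsz (0.77, adjusted p = 0.014) led them, and the median was 0.39. In WAT 4 of 32 fell, among them cathepsin L (Ctsl, -1.21, adjusted p = 0.0141) and the acid lipase that cuts stored cholesterol esters and triglycerides (Lipa, -1.03, adjusted p = 0.0154), and 2 rose (Laptm5 and Ctsh). The share that fell was thus near that of all WAT genes (9.23%), and 2 of 32 is below the share of all genes that rose (14.9%). Ctsz, Ctsl and Lipa also belong to the list of lipid-associated macrophage markers. Of 8 genes around the MiT-TFE factors, which drive lysosomal genes and Gpnmb, Rragd rose in the liver (0.81, adjusted p = 0.0292), and 2 rose and 1 fell in WAT.

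Of the family of Mmp12, 2 of 9 matrix metalloproteinases and their inhibitors rose in the liver, Timp1 (1.37, adjusted p = 0.0169) and Mmp14 (0.85, adjusted p = 0.00814). In WAT 3 of 13 fell, all inhibitors: Timp3 (-0.94, adjusted p = 0.0196), Timp1 (-0.89, adjusted p = 0.0241) and Timp2 (-0.87, adjusted p = 0.0403). Of the receptors that bind osteopontin, Cd44 (1.39, adjusted p = 0.0186) and Itga4 (1.11, adjusted p = 0.0148) rose in the liver among 9, while Spp1 itself overlapped between groups. In WAT 2 of 9 such receptors rose and 3 fell. Of 7 genes of the beta2 integrins, to which Itgax belongs, 4 rose in the liver, with Itgam (CD11b, 2.23, adjusted p = 0.0111) and the common chain Itgb2 (1.67, adjusted p = 0.0139) first. In WAT 3 of 8 such genes rose, the lymphocyte chain Itgal (3.13, adjusted p = 0.00104), Fermt3 and Icam1. There 2 fell, Itgam (-0.79, adjusted p = 0.00694) and Itgad (-1.74, adjusted p = 0.00537).

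The tetraspanins other than Cd9 and Cd63 were mixed. In the liver the leukocyte tetraspanin Cd53 rose (0.99, adjusted p = 0.0228), Tspan33 fell (-0.74, adjusted p = 0.0139) and 10 of 12 were not called, and in WAT 4 of 11 rose and 3 fell. None of 5 galectins other than Lgals3 was called in the liver and none of 6 in WAT, while 1 and 3 had an unadjusted p under 0.05. Of 7 macrophage cytokines and alternative activation genes 5 rose in the liver, with Ccl2, the chemokine that draws monocytes through CCR2, at 2.02 (adjusted p = 0.00506). Il1rn, the antagonist of interleukin 1, rose by 1.93 (adjusted p = 0.00291). In WAT 7 of 15 such genes fell, among them Il1rn (-1.95, adjusted p = 0.0154), Ccl6 (-1.73, adjusted p = 0.0126) and Ccl9 (-1.66, adjusted p = 0.00961), and Tnf rose (1.54, adjusted p = 0.00478). No hepatocyte marker (10 tested, 1 with an unadjusted p under 0.05) and no bile duct marker (3 tested, 0 with an unadjusted p under 0.05) was called in the liver.

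**Figure D3:**
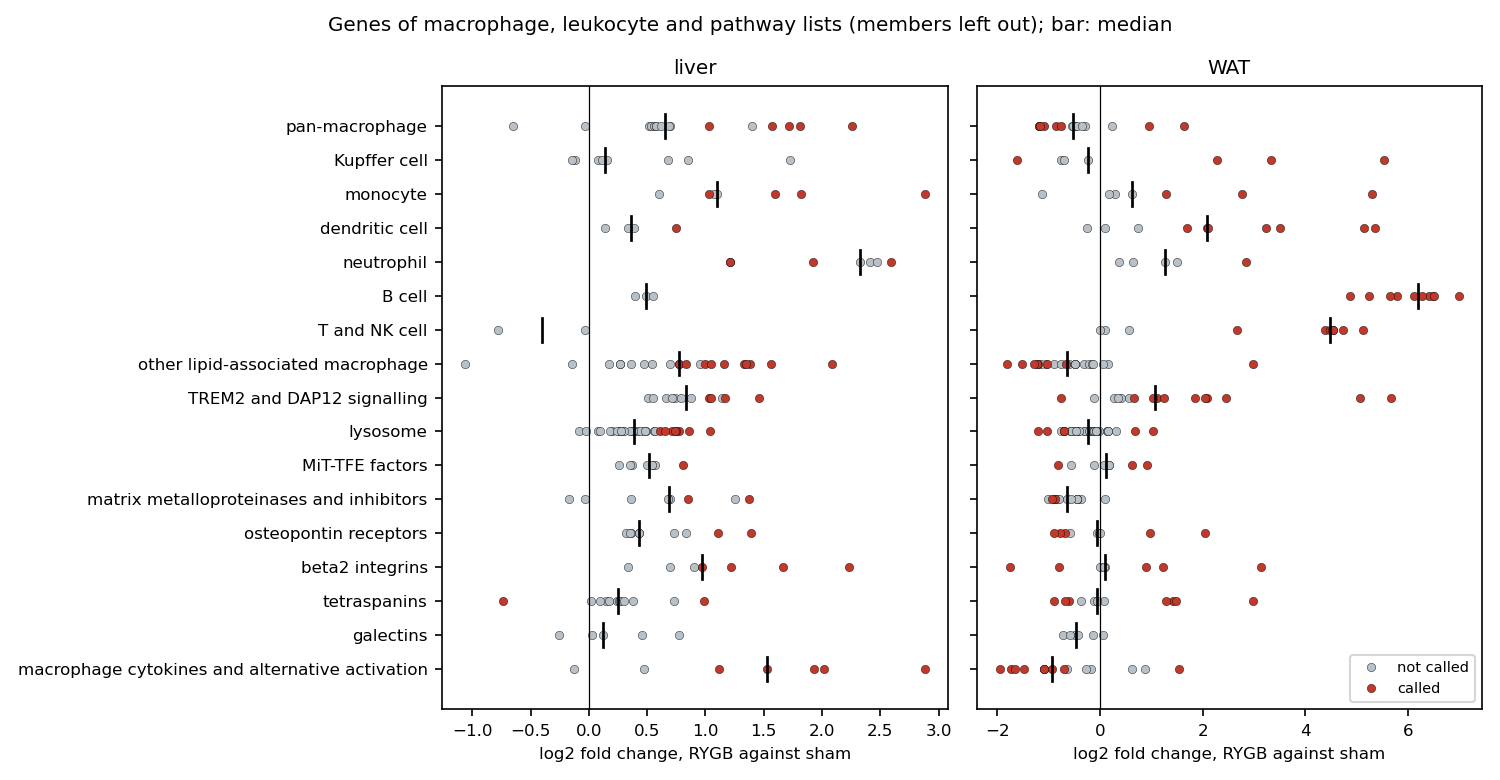
Log2 fold change of RYGB against sham, on the log2(CPM + 1) scale, for each gene of the macrophage, leukocyte and pathway lists in the liver and WAT, with the 10 genes themselves left out. Called genes are red, the others grey, and a bar marks each list's median, which was 0.77 in the liver and -0.64 in WAT for the other markers of lipid-associated macrophages and 6.20 in WAT for B cell markers.

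The genes whose levels followed Gpnmb most closely were ranked by the lower of its correlations over the 8 liver libraries and over the 8 WAT libraries, among 11192 genes. Lgals3 was at position 1 (r = 0.98 in the liver and 0.99 in WAT), Trem2 at position 6 (0.99 and 0.96), Cd63 at position 22 and Mmp12 at position 35 (0.99 and 0.91). Itgax stood far below, at position 2759, with r = 0.97 in the liver and 0.16 in WAT, and so did Spp1, at position 1246 with 0.59 in the liver and 0.99 in WAT. Outside the 10, the nearest genes were Rragc (0.97 and 0.98), Atf3 (0.97 and 0.99), Dennd2a (0.97 and 0.97), Ptafr (0.98 and 0.96) and C5ar1 (0.96 and 0.99). For Mmp12 they were Aifm2 (0.98 and 0.95), Ctsb (0.95 and 0.95), Mpv17 (0.96 and 0.93), Degs1 (0.93 and 0.94) and Atf3 (0.94 and 0.93). Each correlation runs over 4 RYGB and 4 sham libraries together, so a gene that differs between the groups in the same direction scores high whatever its spread within them. The 10 genes were selected on their differences in these same libraries, so nothing is read from their positions.

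The sequencing lane was given in the labels. In the liver, within lane 2 (1 RYGB and 1 sham library) Mmp12 differed by 5.94 and Gpnmb by 4.73 on the log2 scale. Within lane 3 (1 and 2 libraries) the differences were 4.08 and 3.89, and within lane 4 (2 and 1 libraries) 4.98 and 4.47. All 10 genes were higher after RYGB in lanes 3 and 4 and 9 in lane 2, where Spp1 differed by -0.29. In WAT all 10 genes, Itgax included, were lower within lane 5 (2 and 2 libraries) and within lane 6 (1 and 1 libraries). Gpnmb differed there by -0.99 and -3.95. In muscle all 9 listed genes were higher after RYGB within lane 2 (2 and 2 libraries), the only lane there with both groups, with Mmp12 at 0.90, Gpnmb at 0.78 and Lgals3 at 1.10. In the jejunum, within lane 1 (2 and 4 libraries), Tyrobp differed by -1.24 and Cd9 by 1.02. The share of all genes that lay higher or lower within a lane was not counted, so nothing is read from the counts by lane. The 10 genes were also picked on the liver and WAT values.

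**Figure D4:**
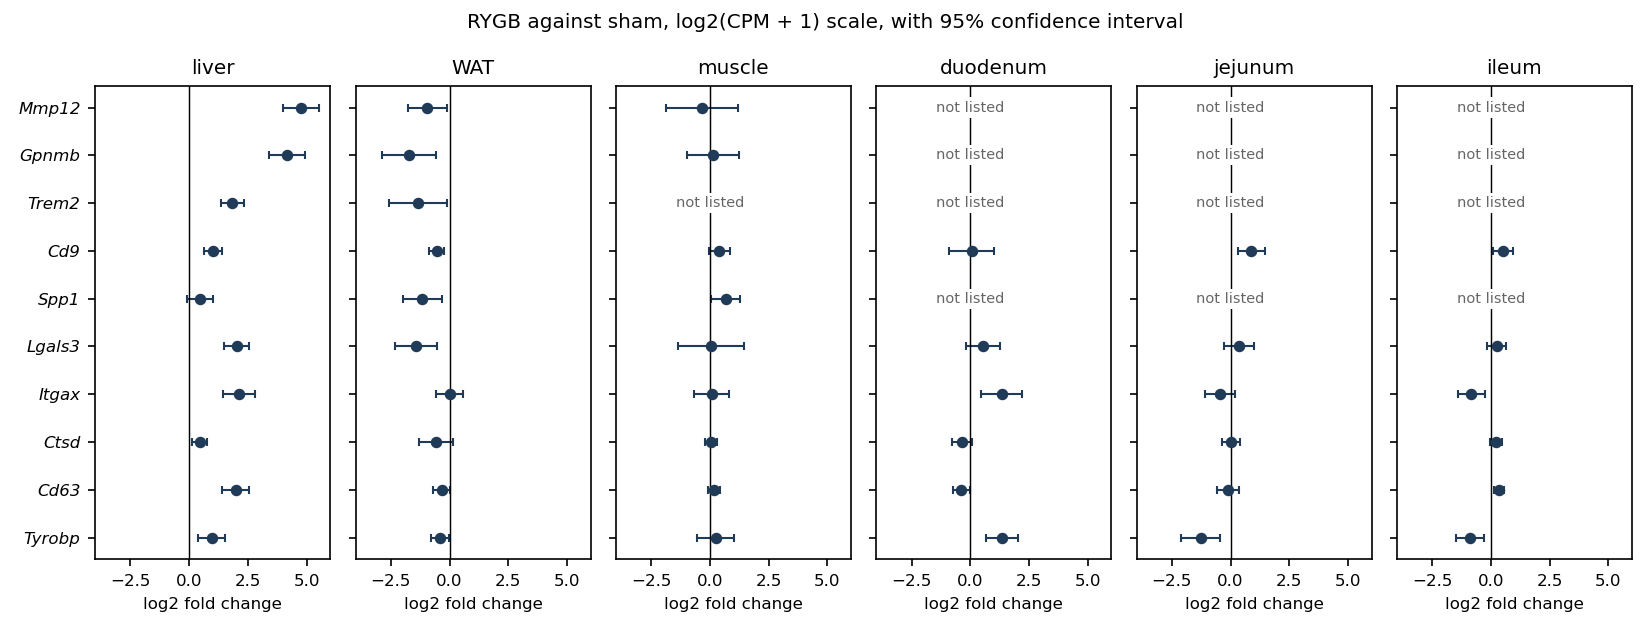
Log2 fold change of RYGB against sham on the log2(CPM + 1) scale for the 10 genes in each tissue, with the 95% confidence interval of the limma fit. Values lie to the right of 0 in the liver, from 0.44 to 4.76, at or to the left of 0 in WAT, from -1.73 to 0.00, and were not called in muscle or the intestinal villi.

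In muscle none of the 9 listed genes was called, and neither was any of the 11966 genes tested (0%), of which 14.6% had an unadjusted p under 0.05. Of the 9 genes, Spp1 alone had an unadjusted p under 0.05, with 3.4, 3.5, 3.4 and 1.1 CPM after RYGB and 0.9, 1, 2.4 and 1.2 CPM after sham (log2 fold change 0.67, adjusted p = 0.314 in limma). Mmp12 had 8.3, 4.7, 2.7 and 1.7 CPM after RYGB and 1, 6.6, 23.2 and 2.6 CPM after sham (-0.33, adjusted p = 0.876), and within lane 2 it differed by 0.90 in the other direction. Gpnmb had 14.1, 9.9, 12.2 and 5.8 CPM against 5.5, 7.6, 30.3 and 4.7 CPM (0.14, adjusted p = 0.932). Sham replicate 3 was the highest library for Mmp12, Gpnmb, Lgals3, Itgax and Tyrobp, and without it the difference of Mmp12 turned to 0.338. The 95% confidence interval of Mmp12 ran from -1.87 to 1.21, which includes the difference seen in WAT. No gene of any of the lists was called in muscle, and 3 of 20 in the list of other lipid-associated macrophage markers had an unadjusted p under 0.05.

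In the intestinal villi, which were scraped from the gut wall, none of the 6 listed genes was called in any segment. The share of all genes called was 0.00922% in the duodenum, 9.75% in the jejunum and 6.05% in the ileum. At an unadjusted p under 0.05 stood 3 of the 6 genes in the duodenum, 2 in the jejunum and 4 in the ileum, beside 18.8%, 24.6% and 26.5% of all genes. Tyrobp differed most, and in opposite directions. In the duodenum it had 9.3, 4 and 6.8 CPM after RYGB and 2.3, 2.2, 0.9 and 2.3 CPM after sham (log2 fold change 1.37 ± 0.30, adjusted p = 0.132 in limma). In the jejunum it had 0.9, 0.9 and 1.3 CPM against 3.5, 4.1, 1.7 and 8.5 CPM (-1.28 ± 0.36, adjusted p = 0.0533). Without sham replicate 3 the difference in the jejunum was called (-1.57, adjusted p = 0.0228, limma), as were 5.42% of all genes. Groups did not overlap in either segment, as for 12.7% of all genes with RYGB higher in the duodenum and 12.5% with RYGB lower in the jejunum. In the ileum it had 0.5 to 1.6 CPM against 1.6 to 6.4 CPM (-0.90 ± 0.27, adjusted p = 0.0617).

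Itgax followed Tyrobp in sign, with 8.1, 3.1 and 6.8 CPM after RYGB against 1.9, 0.8, 1 and 3.6 CPM after sham in the duodenum (1.33 ± 0.39, adjusted p = 0.153), -0.45 in the jejunum (adjusted p = 0.363) and -0.83 in the ileum (adjusted p = 0.0728). T and NK cells, which sit among the villus epithelium and can also use Tyrobp and Itgax, had sums that differed in the same direction. The summed level of 8 of their 11 markers was 90.1 to 246.0 CPM after RYGB and 40.8 to 130.6 CPM after sham in the duodenum, where none was called. It was 23 to 35.3 CPM against 94.7 to 239.2 CPM in the jejunum, where 7 of 8 fell (5.13% of all genes were called lower), and 9.1 to 37.7 CPM against 51.6 to 161.1 CPM in the ileum, where 6 of the 7 listed fell (4.42%). Pan-macrophage genes moved with both genes in the duodenum as well. Of the 16, 8 were listed there, none was called and 3 had an unadjusted p under 0.05, with a median log2 fold change of 0.80 against 0.12 for all genes. Csf1r, the receptor for the macrophage growth factor CSF1, went from 1.5 to 6.87 CPM (1.70, adjusted p = 0.142 in limma), and the complement genes C1qa and C1qc differed by 1.37 and 1.35 (adjusted p = 0.152 and 0.155). The sum of the 8 overlapped, with 296.1 to 419.7 CPM after RYGB and 281.1 to 439.7 CPM after sham. In the jejunum Csf1r differed by 0.19 (adjusted p = 0.763), and Cd14 rose (from 3.38 to 11.1 CPM, adjusted p = 0.00492). In the ileum Cd14 rose (1.03, adjusted p = 0.0316) and the receptor kinase Mertk fell (-0.65, adjusted p = 0.0167). Adgre1 and Cd68 were not listed in any segment of the gut. The part of T and NK cells and of macrophages in the values of Tyrobp and Itgax was not tested.

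In the duodenum both genes were called without sham replicate 4 (adjusted p = 0.0331 for Itgax and 0.0406 for Tyrobp, limma). Without that library 757 of 10854 genes (6.97%) were called, against 1 gene (0.00922%) with it.

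Cd9 was higher after RYGB in the jejunum, with 4.6, 3.4 and 5 CPM against 0.9, 2.4, 2.6 and 1.9 CPM and no overlap (9.75% of all genes lay so), but did not pass the adjusted test (0.88 ± 0.26, adjusted p = 0.0625 in limma). Scaling by median ratios took it past the threshold (0.932, adjusted p = 0.0458). Cd63 was apart in the ileum, 57.5 to 76.5 CPM after RYGB and 46.9 to 56.0 CPM after sham (0.33 ± 0.10, adjusted p = 0.0674 in limma), as were 2.42% of all genes. In the duodenum it was apart the other way (60.1 to 61.3 against 64.3 to 99.9 CPM, -0.39, adjusted p = 0.236), as were 2.93% of all genes. Lgals3 and Ctsd were abundant in all segments, with group means of 193.3 to 337.8 CPM and 207.4 to 265.4 CPM, and had adjusted p-values from 0.303 to 0.976. In the ileum no lane held libraries of both groups, and lane and surgery therefore cannot be separated there.

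**Figure D5:**
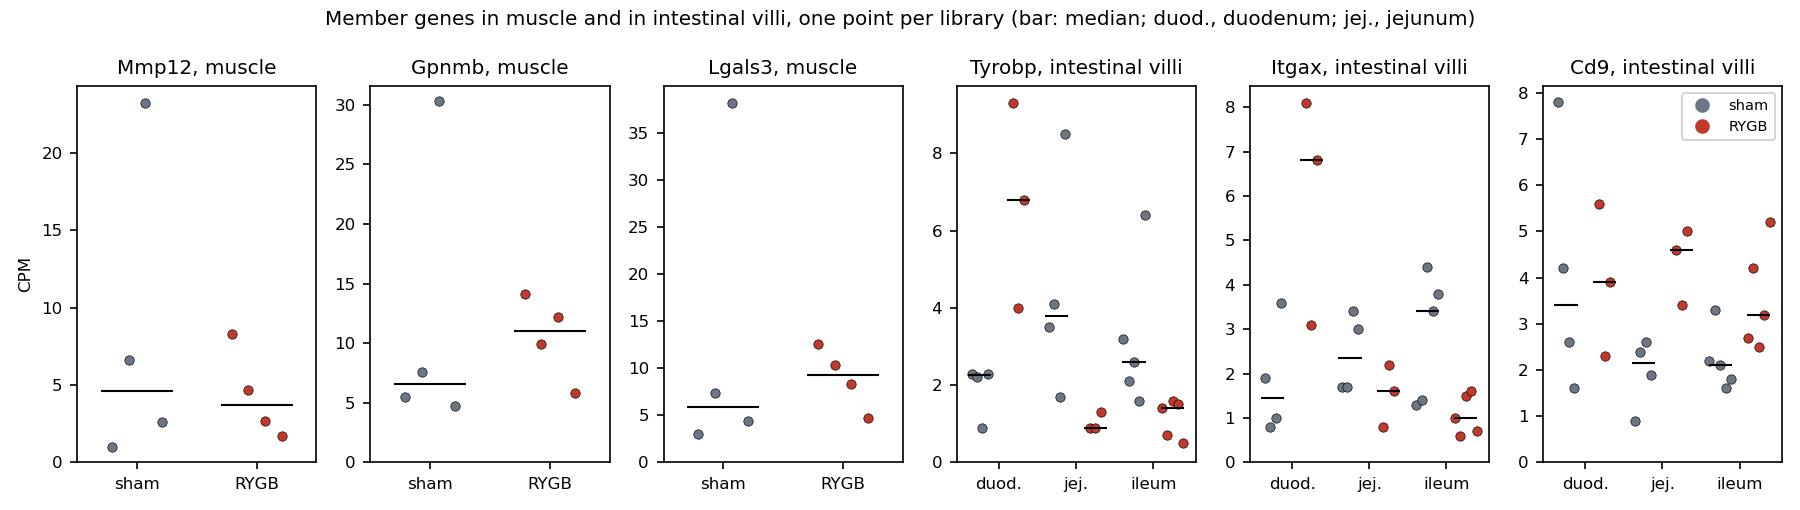
Level in CPM of Mmp12, Gpnmb and Lgals3 in muscle and of Tyrobp, Itgax and Cd9 in the villi of the duodenum, jejunum and ileum, with a point for each library, grey for sham and red for RYGB, and a bar at the median. A single sham library holds the highest value of the 3 genes in muscle (23.2, 30.3 and 38.2 CPM), and Tyrobp is higher after RYGB in the duodenum and lower in the jejunum and ileum.

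Over all groups that listed it, the level of Mmp12 was in the order sham WAT (233.9 CPM ± 37.3, SD), RYGB WAT (134.5 ± 60.6), RYGB liver (48.9 ± 17.3), sham muscle (8.35 ± 10.2), RYGB muscle (4.35 ± 2.91) and sham liver (1 ± 1.28), with n = 4 each. Neighbours overlapped between RYGB WAT and RYGB liver and among the last 3. Gpnmb had the same order, with overlap between RYGB liver and sham muscle and between both muscle groups. Galectin-3 (Lgals3) differed from these, since after sham WAT (579.5 ± 198.9 CPM) it was highest in the duodenum and jejunum after RYGB (337.8 ± 55.6 and 296.9 ± 86.8 CPM, n = 3), whose ranges overlapped that of sham WAT.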

How the data were processed

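Messenger RNA was sequenced from 48 libraries of 6 mouse tissues with a stranded kit. The authors deposited 1 table per tissue with CPM values rounded to 0.1 by the authors, and the submitters' processing notes name HTSeq and GRCm38. The aligner and the total counts are not given in the sources used here, so depth is unknown, the precision rests on replicates and the rounding, and no count model was used. As deposited, the ileum and jejunum columns are a signal on the CPM scale whose sums are too high for CPM because lines repeat. Repeated lines, equal in value, were counted once, after which libraries summed to 925122 to 998777. In the liver table the deposited column of sham replicate 4 is a score where 12 incomplete lines hold another kind of number, and these lines were left out.

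Each table was fitted alone by limma (version 3.58.1, R 4.3.3, empirical Bayes with a trend) on log2(CPM + 1) with surgery as the term, leaving out genes whose mean was under 1 CPM, with Benjamini-Hochberg adjustment over all genes of the table. A call needed an adjusted p under 0.05 and a fold change of at least 1.5. Other steps used Python 3.11.15 (pandas 2.3.3 and numpy 2.4.6). The fit was tested on simulated data. The 10 genes and the 24 gene lists were chosen with earlier results of these data known. Named besides the 10 genes are, per list, at most the 3 called genes with the largest change in each direction in the liver and WAT, and the 5 genes most like Gpnmb and Mmp12. Genes named for another reason were chosen after their values were seen. Alternatives were the pseudocount, the filter, median-ratio scaling, the lane, the replicate number as a block and leaving out each library. Same-numbered RYGB and sham libraries deviated with correlations from -0.281 to 0.389, not all above 0.1 in any tissue, so numbers were not taken as pairs. Not every gene of the lists is reported here.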

Additional observations from a re-analysis of the deposited data

Results flagged for a closer look

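In 9 comparisons the RYGB libraries lay wholly above the sham libraries in one tissue and wholly below in another. Each tissue has its own normalization, so this difference was not tested, and the values are differences of log2 fold changes. Between the liver and WAT this held for Mmp12 (5.70, from 4.76 and -0.94), Gpnmb (5.89, from 4.16 and -1.73), Lgals3 (3.44, from 2.02 and -1.42) and Cd9 (1.56, from 1.00 and -0.55). These genes were picked with both contrasts known. Cd9 also differed in sign between WAT and the jejunum (-1.44). For Cd63 it held between the liver and the duodenum (2.36) and between the duodenum and the ileum (-0.72), and for Tyrobp between the liver and the jejunum (2.23) and between the duodenum and the jejunum (2.65). The share of all genes with such opposite groups was not counted, so nothing is read from the number of these comparisons.

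Of 82 groups of 4 or 5 libraries looked at, 3 held a library far from the others, where about 1 in 20 groups, or 4.1, would by chance. Muscle RYGB replicate 4 was low for Spp1, with 1.1 CPM against 3.4 to 3.5 CPM in the other libraries, and for Ctsd, with 394.7 CPM against 507.6 to 516.7 CPM. Duodenum sham replicate 3 had 0.9 CPM of Tyrobp against 2.2 to 2.3 CPM.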

How the results depend on the processing

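With genes of a mean of at least 10 CPM alone, fewer genes were tested, and 5.68% of all liver genes were called in place of 7.08%. Trem2, Itgax and Cd63 have lower means in the liver and were not tested there. The number called in the liver was 4 of the 10 genes in place of 8, 3 pan-macrophage genes in place of 5 and 5 other lipid-associated macrophage markers in place of 10. With the lane in the fit, 8 pan-macrophage genes were called in the liver and 12 in WAT, in place of 5 and 7. The share of all genes called rose as well, to 9.23% in the liver and to 30.3% in WAT. The replicate number as a block gave 8 pan-macrophage genes in the liver, where it called 10.5% of all genes. It gave 1 of the 10 genes in WAT in place of 3 (24.9% of all genes in place of 24.1%). In the duodenum the block gave 1 in place of 0 (Itgax, 1.6, where it called 2.79% of all genes). It moved no other of these counts by over 1.5 times. In the jejunum a pseudocount of 0.1 CPM called 1 of the 10 genes (Tyrobp, -1.81) and 9.84% of all genes, and median-ratio scaling 1 (Cd9) and 9.78%. Leaving out 1 library gave 7 to 8 of the 10 genes in the liver, 0 to 4 in WAT, 0 to 2 in the duodenum (2 without sham replicate 4, where 6.97% of all genes were called), 0 to 1 in the jejunum, and 0 in muscle and the ileum. The share of all genes called then ran from 2.79% to 10.2% in the liver and from 18.5% to 28.1% in WAT. It ran from 4.25% to 9.40% in the jejunum, 0% to 1.75% in muscle and 2.91% to 7.15% in the ileum. Leaving out 1 library also gave 3 to 7 pan-macrophage genes in the liver and 3 to 8 in WAT, and 7 to 11 and 5 to 10 of the other lipid-associated macrophage markers. The cause of these shifts was not tested.

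With a pseudocount of 0.1 CPM the log2 fold change in the liver was 6.05 for Mmp12, 5.19 for Gpnmb, 2.34 for Trem2 and 2.78 for Itgax. In the liver and WAT no alternative reversed the sign of a fold change of the 10 genes, except that of Itgax in WAT, which lay at 0.00 and ranged from -0.33 to 0.19. In muscle and the intestinal villi 26 alternative fold changes had the other sign, none of a called gene. Values without single libraries are given as ranges. In muscle these were Mmp12 with the lane (0.901), Lgals3 and Ctsd with scaling (-0.00202 and -0.0319) and, without single libraries, Mmp12 (-0.861 to 0.338), Gpnmb (-0.128 to 0.691), Lgals3 (-0.351 to 0.747), Itgax (-0.187 to 0.391), Ctsd (-0.0431 to 0.126) and Tyrobp (-0.052 to 0.567). In the duodenum Cd9 turned with scaling (-0.0387), with the replicate block (-0.209) and without single libraries (-0.209 to 0.378). In the jejunum Cd63 turned with the replicate block (0.00276) and without single libraries (-0.294 to 0.00276), and Ctsd without single libraries (-0.0508 to 0.134). The lane could not be fitted in the duodenum, which had a single lane, or in the ileum, where no lane held both groups. Depth is unknown, and values near 0.1 CPM are limited by rounding.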

Other observations

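Cells that can share Itgax with macrophages were also measured. Of 10 dendritic cell markers in WAT, 7 rose after RYGB, led by H2-DMb2 (log2 fold change 5.35, adjusted p = 1.14e-05 in limma), Ccr7 (5.14, adjusted p = 8.99e-05) and Flt3 (3.50, adjusted p = 0.00056), whereas Itgax itself stood at 0.00. In the liver 4 of 10 dendritic cell markers were listed, and Irf8 rose (0.75, adjusted p = 0.0499).

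Around the 10 genes in the liver, 2 of 9 fibroblast and stellate cell markers rose, the collagen gene Col1a1 (1.32, adjusted p = 0.0429) and Lum (1.13, adjusted p = 0.0176). In WAT, Lep, the adipocyte hormone leptin, fell (-1.38, adjusted p = 0.0309) as 1 of 10 adipocyte markers. Keratinocyte markers, which stand for skin, fell in WAT for 3 of 5 (Krt5 by 4.43, adjusted p = 0.0107), with a summed level of 9.9 to 192.9 CPM in sham and 11.1 to 21.1 CPM in RYGB libraries. Sham replicate 4, the sham WAT library with the highest value of all 10 genes, had the lowest keratinocyte sum of the sham libraries, 9.9 CPM. Their part in the values of the 10 genes was not tested.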
